A study of Mus musculus with 6 samples.

Results

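The genes described here encode the kinases, kinesins, kinetochore proteins and partner factors that carry a cell through mitosis. They were taken as a fixed list of 42 symbols, and all 42 were present among the 26264 genes of the table of normalized counts. Bulk RNA-seq was done on HSCs sorted from the bone marrow of 3 WT mice, which the study's methods give as C57Bl/6, and of 3 mice labelled IRF1 KO (*Irf1-/-*, strain B6.129S2-Irf1 tm1Mak/J). All mice were untreated females of 8 weeks, each gave 1 library, and the knockout was present in the whole body, so the *Irf1-/-* HSCs had also developed in a host without IRF1. Libraries are named by the numbers 2, 3 and 4 that the labels give within each genotype. Between 43138521 and 59658080 reads were counted on genes per library (median 45231251), and 0.181% to 0.346% of them fell on the 42 genes. Values are normalized counts, that is, reads divided by a size factor for each library.

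Cells enter mitosis when the kinase CDK1 is switched on by A- and B-type cyclins. Aurora and Polo-like kinases, motor proteins of the kinesin family and the proteins of the kinetochore then build the spindle and attach chromosomes to it, and the anaphase-promoting complex ends mitosis by marking cyclins and other proteins for destruction. Adult HSCs are largely quiescent, and these genes are transcribed mainly in cells between late S phase and the end of mitosis.

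The targeted gene, *Irf1*, had 9267, 9524 and 9287 normalized counts in *Irf1-/-* replicates 2, 3 and 4 and 10122, 11119.6 and 12057 in WT replicates 2, 3 and 4. No *Irf1-/-* library reached the lowest WT library (limma, log2 fold change −0.24 with SE 0.088 and adjusted *P* = 0.170; *P* = 0.1 by exact permutation, two-sided, which is the smallest possible with 3 mice against 3). Reads on the gene were thus not absent from the libraries labelled IRF1 KO, and which part of the gene they covered was not analysed here. Markers of HSCs were present in each library. The stem cell factor receptor gene *Kit* had 83185, 84043 and 80517 normalized counts in WT replicates 2, 3 and 4, against 77902, 88715 and 79909 in *Irf1-/-* replicates 2, 3 and 4. *Procr*, *Slamf1* and *Ly6a*, which encode the surface proteins EPCR, CD150 and Sca-1, had at least 3754, 2848 and 4974 normalized counts in the lowest library. *Cd48*, which marks progenitors that the HSC gate leaves out, ranged from 257 to 431.

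The mean of each of the 42 genes was lower in *Irf1-/-* than in WT HSCs, and few of these differences passed the test in limma. Differences between functional classes were not tested. The genotypes were tested against each other in limma, on log2(normalized count + 1), for the 17404 genes whose mean was 10 or more, and all 42 mitotic genes passed this filter. Calls needed a log2 fold change, *Irf1-/-* over WT, beyond 0.58 in either direction together with an adjusted *P* under 0.05. On this scale all 42 genes were below 0, as were 50.4% of all tested genes. Their median was −0.51, against −0.003 over all tested genes, of which 6.92% lay below −0.51. Of the 42 genes, 6 were called lower (14.3%), namely *Top2a*, *Mki67*, *Ckap2l*, *Aurkb*, *Cdca3* and *Tpx2*. Over all tested genes 0.954% were called lower and 0.960% higher. No mitotic gene was called higher in limma, edgeR or DESeq2, and none had a log2 fold change above 0 in these fits. With *Cks2*, *Kif11* and *Cdk1*, 9 of the 42 (21.4%) had an adjusted *P* under 0.05, against 1.49% of tested genes that were lower at this threshold. At an unadjusted *P* under 0.05 there were 35 (83.3%), against 8.07%. In DESeq2, 10 of the 42 were called lower, as were 211 genes over all genes. There 23 of the 42 had an adjusted *P* under 0.05 at any fold, for which no count over all genes is given here. The 42 genes vary together from library to library and are not independent of one another. In bulk RNA a smaller number of dividing cells and less RNA per dividing cell cannot be told apart.

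The calls depended on single mice. Without *Irf1-/-* replicate 4, WT replicate 2 or WT replicate 3, none of the 42 genes was called in limma or passed the adjusted *P* of 0.05 at any fold, and 18, 25 and 22 of them had an unadjusted *P* under 0.05, in that order, as did 1955, 2161 and 2104 of all tested genes in either direction. The lowest adjusted *P* of a mitotic gene in these fits was 0.0532, 0.0548 and 0.0674. Without WT replicate 4, 24 of the 42 genes were called lower, and without *Irf1-/-* replicates 2 and 3 there were 4 and 8. Over all tested genes these fits called 265, 137 and 165 lower and 304, 104 and 152 higher, in that order. None of the 42 genes was called in all 6 fits with 1 library left out, although 40 of the 42 were below 0 in each of them. The median ranged from −0.65 without WT replicate 4 to −0.32 without *Irf1-/-* replicate 4. When limma was fitted without a trend in the prior variance, no mitotic gene was called and 14 had an unadjusted *P* under 0.05, as did 2130 of all tested genes in either direction.

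**Figure D1:**
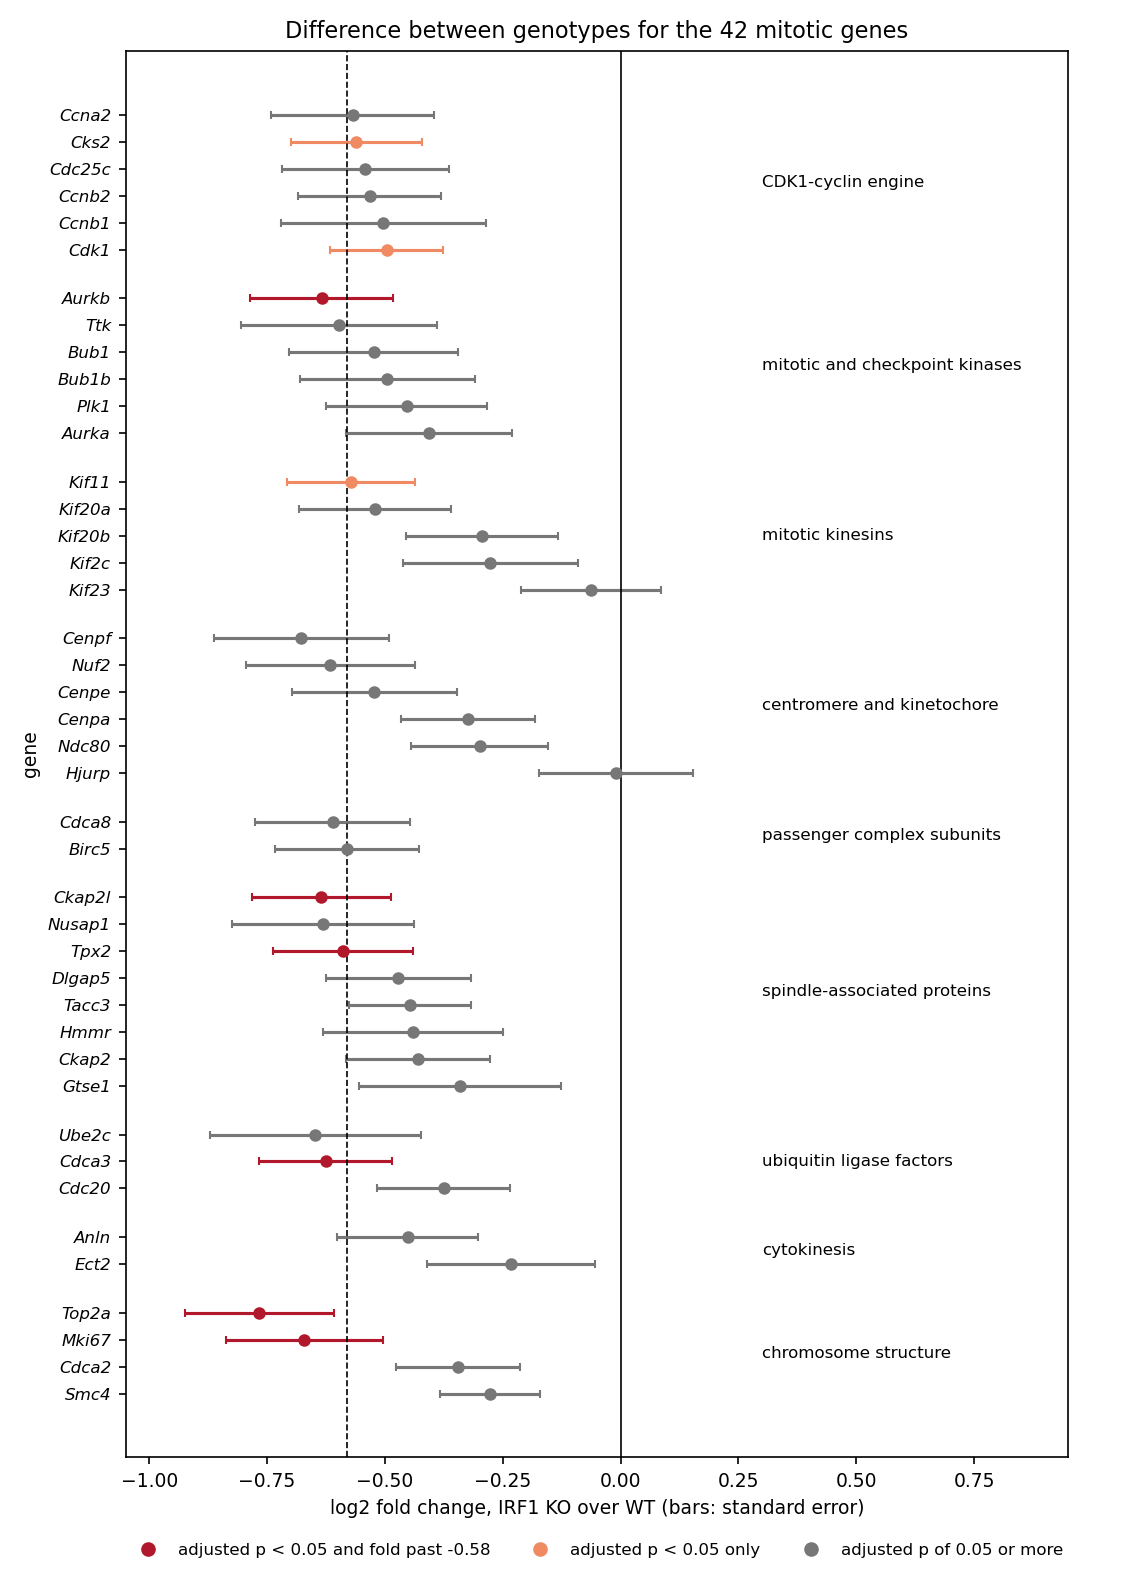
Log2 fold change (*Irf1-/-* over WT, horizontal axis) of each of the 42 mitotic genes, with bars of 1 standard error and the genes grouped by function. All points lie below 0, from −0.77 for *Top2a* to −0.010 for *Hjurp*, and the dashed line marks the threshold of −0.58.

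Single libraries also differed within each genotype. The mean deviation of the 42 genes from their means over the 6 libraries was −0.043, −0.056 and −0.62 in *Irf1-/-* replicates 2, 3 and 4 and 0.36, 0.40 and −0.043 in WT replicates 2, 3 and 4, on the log2 scale. WT replicates 2 and 3 were thus high, *Irf1-/-* replicate 4 was low, and the other 3 libraries lay together near the mean. *Irf1-/-* replicate 4 was the lowest of all 6 libraries for 40 of the 42 genes, and WT replicate 4 for *Kif23* and *Hjurp*. WT replicate 4 was the lowest WT library for all 42. The highest of the 6 libraries was WT replicate 3 for 25 genes, WT replicate 2 for 16 and *Irf1-/-* replicate 2 for *Hjurp*. For 17 of the 42 genes (40.5%) the highest *Irf1-/-* library was below the lowest WT library, which held for 9.27% of all tested genes. *Irf1-/-* replicate 2 was above WT replicate 4 for 18 genes, *Irf1-/-* replicate 3 also for 18, and *Irf1-/-* replicate 4 for 2. The median distance between the highest and the lowest *Irf1-/-* library was 0.67, and it was wider than the difference between the genotype means for 34 of the 42 genes. Among WT libraries it was 0.48, and wider for 20. Both libraries numbered 4 were below the mean of the other 2 libraries of their genotype for all 42 genes, by a median of 0.58 in *Irf1-/-* and 0.40 in WT HSCs. After the values per library were seen, the comparison was repeated without replicate 4 of both genotypes. Then 6 mitotic genes were called lower, 3 of them called with all libraries as well, while 174 of all tested genes were called lower and 157 higher. The adjusted *P* of 16 mitotic genes was under 0.05 in limma, and no count over all genes at this threshold alone is given here.

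The CDK1 and cyclin group holds the mitotic kinase gene *Cdk1*, its cyclins *Ccna2*, *Ccnb1* and *Ccnb2*, the CDK-binding subunit gene *Cks2*, and *Cdc25c*, which encodes a phosphatase that activates CDK1. Its 6 genes had log2 fold changes within a narrow range of −0.57 to −0.50 (median −0.54). None of them was called in limma, edgeR or DESeq2, all 6 had an unadjusted *P* under 0.05 (against 8.07% of all tested genes that were lower), and *Cks2* and *Cdk1* passed the adjusted *P* (against 1.49%). *Cdk1* had 3505, 3659.6 and 2771 normalized counts in *Irf1-/-* replicates 2, 3 and 4 and 4881, 5058 and 4036 in WT replicates 2, 3 and 4. Every *Irf1-/-* library was below every WT library, with means of 4658 ± 546 (SD, *n* = 3) for WT mice and 3312 ± 475 for *Irf1-/-* mice (limma, log2 fold change −0.50 with SE 0.12 and adjusted *P* = 0.0392). *Cks2* had 2335, 2038 and 1835 normalized counts in WT replicates 2, 3 and 4, against 1559, 1538 and 1133 in *Irf1-/-* replicates 2, 3 and 4. The genotypes again did not overlap, and *Irf1-/-* replicates 2 and 3 were nearly level (limma, log2 fold change −0.56 with SE 0.14 and adjusted *P* = 0.0428). With 1 library left out, *Cdk1* passed the adjusted *P* only without *Irf1-/-* replicate 3 or WT replicate 4, and *Cks2* only without WT replicate 4, and the values reached 0.197 and 0.198 without *Irf1-/-* replicate 4. Cyclin A2 from *Ccna2*, the cyclin of late S and G2 phase, had the lowest log2 fold change of the group. *Ccna2* counted 4737, 4954 and 3016 in the *Irf1-/-* libraries, in the order of replicates 2, 3 and 4, and 6969, 6807 and 4866 in the WT libraries. WT replicate 4 lay between *Irf1-/-* replicates 2 and 3, so the genotypes overlapped (limma, log2 fold change −0.57 with SE 0.17 and adjusted *P* = 0.0989). *Ccnb1*, the main mitotic cyclin gene, spread more within each genotype than any other gene of the group, with 6663, 7915 and 4747 normalized counts in WT replicates 2, 3 and 4, against 5766, 5237 and 2909.8 in *Irf1-/-* replicates 2, 3 and 4. WT replicate 4 was below *Irf1-/-* replicates 2 and 3, and the mice of each genotype differed more than the genotype means (limma, log2 fold change −0.50 with SE 0.22 and adjusted *P* = 0.266). *Ccnb2* had no overlap between genotypes (log2 fold change −0.53, adjusted *P* = 0.0792, limma), and *Cdc25c* did overlap (−0.54, adjusted *P* = 0.125).

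Of the 6 mitotic and checkpoint kinase genes (median −0.51), *Aurkb* was called in limma, edgeR and DESeq2, and *Ttk* in DESeq2 alone. Aurora B, its product, is the catalytic subunit of the chromosomal passenger complex and corrects faulty attachments of microtubules. *Aurkb* had 4272, 3838 and 2683 normalized counts in *Irf1-/-* replicates 2, 3 and 4 and 5919, 6015 and 4624 in WT replicates 2, 3 and 4. The lowest WT library was above the highest *Irf1-/-* library, with means of 5519 ± 777 (SD, *n* = 3) for WT mice and 3598 ± 821 for *Irf1-/-* mice (limma, log2 fold change −0.63 with SE 0.15 and adjusted *P* = 0.0368). This call was made with *Irf1-/-* replicate 2 or WT replicate 4 left out and lost without any other library (adjusted *P* up to 0.142, limma). *Aurka*, whose product matures centrosomes, had the smallest difference of the group, with 2942, 3303 and 2318 normalized counts in WT replicates 2, 3 and 4, against 2471, 2545 and 1537 in *Irf1-/-* replicates 2, 3 and 4. *Irf1-/-* replicates 2 and 3 were both above WT replicate 4 (limma, log2 fold change −0.41 with SE 0.18 and adjusted *P* = 0.263). *Plk1*, the gene of a kinase that acts on centrosomes, kinetochores and cytokinesis, counted 3241, 3013 and 1953 in the *Irf1-/-* libraries, in the order of replicates 2, 3 and 4, and 3955, 4181 and 2964 in the WT libraries. Here too WT replicate 4 lay among the *Irf1-/-* libraries (limma, log2 fold change −0.45 with SE 0.17 and adjusted *P* = 0.189). The kinases of the spindle assembly checkpoint, which delay anaphase until all chromosomes are attached, are encoded by *Ttk*, *Bub1* and *Bub1b*. Their log2 fold changes were −0.60, −0.52 and −0.49, with adjusted *P* of 0.153, 0.143 and 0.187 in limma, and in each of the 3 genes the genotypes overlapped.

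The 5 kinesin genes were the class with the smallest median difference (−0.29). *Kif11* encodes the motor that pushes spindle poles apart and had 4419, 4637 and 3161 normalized counts in *Irf1-/-* replicates 2, 3 and 4 and 6581, 6234 and 5191 in WT replicates 2, 3 and 4. No *Irf1-/-* library reached the lowest WT library (limma, log2 fold change −0.57 with SE 0.14 and adjusted *P* = 0.0355); *Kif11* passed the adjusted *P* and missed the fold threshold narrowly. It had an adjusted *P* of up to 0.149 with 1 library left out, and was called without *Irf1-/-* replicate 3 or WT replicate 4. *Kif23*, which encodes a motor of the central spindle needed for cytokinesis, had 3401, 3538 and 2391 normalized counts in WT replicates 2, 3 and 4, against 3105, 3319 and 2449 in *Irf1-/-* replicates 2, 3 and 4. WT replicate 4 was the lowest of the 6 libraries and the other values were mixed, with means of 3110.0 ± 626 (SD, *n* = 3) for WT mice and 2958 ± 454 for *Irf1-/-* mice (limma, log2 fold change −0.063 with SE 0.15 and adjusted *P* = 0.902). Without *Irf1-/-* replicate 4, WT replicate 2 or WT replicate 3, *Kif23* was above 0 (up to 0.067). *Kif20a*, another gene of a central spindle motor, was at −0.52 (adjusted *P* = 0.105, limma). *Kif20b*, of a cytokinesis motor, and *Kif2c*, of a kinesin that takes microtubules apart at centromeres, were at −0.29 and −0.28 (adjusted *P* = 0.406 and 0.530, limma), and the genotypes overlapped in all 3.

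The centromere and kinetochore genes (6 genes, median −0.42) ranged from the second lowest value of all 42 to almost no difference. None was called in limma, in which 4 had an unadjusted *P* under 0.05 (against 8.07% of all tested genes that were lower), or in edgeR, and DESeq2 called *Cenpf* and *Nuf2*. *Cenpf*, which encodes a large kinetochore protein that accumulates in G2 phase, had 1359, 1237 and 855 normalized counts in *Irf1-/-* replicates 2, 3 and 4 and 2150.3, 1994 and 1372 in WT replicates 2, 3 and 4. The highest *Irf1-/-* library and the lowest WT library were close to each other, but did not overlap (limma, log2 fold change −0.68 with SE 0.18 and adjusted *P* = 0.0677). *Hjurp* encodes the chaperone that loads the centromeric histone CENP-A after mitosis and had 804, 597 and 606 in the *Irf1-/-* libraries, in the order of replicates 2, 3 and 4, and 749, 687 and 578 in the WT libraries. *Irf1-/-* replicate 2 was the highest and WT replicate 4 the lowest of these libraries, and the means were level at 671 ± 86.7 (SD, *n* = 3) for WT mice and 669 ± 117 for *Irf1-/-* mice (limma, log2 fold change −0.010 with SE 0.16 and adjusted *P* = 0.988). With 1 library left out it ranged from −0.15 to 0.072. *Cenpa*, the gene of that histone, was at −0.32 (adjusted *P* = 0.273, limma). *Ndc80* and *Nuf2* encode the paired subunits that grip microtubules in the same complex. *Nuf2* had a log2 fold change of −0.62 without overlap of the genotypes (adjusted *P* = 0.0833, limma), and *Ndc80* one of −0.30 with overlap (adjusted *P* = 0.330); whether the 2 genes differ was not tested. *Cenpe*, the gene of a kinesin at kinetochores, was at −0.52, with *Irf1-/-* replicate 2 just below WT replicate 4 (1512 and 1514 normalized counts).

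The passenger complex subunits, which hold Aurora B at centromeres, were *Cdca8* for borealin and *Birc5* for survivin. *Cdca8* had 5816, 6004 and 4269 normalized counts in WT replicates 2, 3 and 4, against 3688, 4327 and 2620.2 in *Irf1-/-* replicates 2, 3 and 4. *Irf1-/-* replicate 3 was slightly above WT replicate 4 (limma, log2 fold change −0.61 with SE 0.17 and adjusted *P* = 0.0636). *Birc5* had 2621, 2756 and 1715 normalized counts in *Irf1-/-* replicates 2, 3 and 4 and 3723, 3618 and 3082 in WT replicates 2, 3 and 4. There was no overlap between genotypes (limma, log2 fold change −0.58 with SE 0.15 and adjusted *P* = 0.0575), and neither gene was called in limma or edgeR, while DESeq2 called *Cdca8*. In limma both had an unadjusted *P* under 0.05 (against 8.07% of all tested genes that were lower) and were called in 2 of the 6 fits with 1 library left out, which left out *Irf1-/-* replicate 3 or WT replicate 4.

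Of the 8 genes of spindle-associated proteins (median −0.46), *Ckap2l* and *Tpx2* were called. *Ckap2l* encodes a protein of spindle microtubules and had 3882, 3188 and 2607 normalized counts in *Irf1-/-* replicates 2, 3 and 4 and 5160.5, 5805 and 4031 in WT replicates 2, 3 and 4. The highest *Irf1-/-* library was just below the lowest WT library, and the means were 4999 ± 898 (SD, *n* = 3) for WT mice and 3226 ± 639 for *Irf1-/-* mice (limma, log2 fold change −0.64 with SE 0.15 and adjusted *P* = 0.0326). *Tpx2*, the gene of a microtubule nucleator that activates Aurora A, had 5851, 5946 and 4261 normalized counts in WT replicates 2, 3 and 4, against 3907, 4010.4 and 2780.0 in *Irf1-/-* replicates 2, 3 and 4. Again WT replicate 4 was the nearest WT library to the *Irf1-/-* libraries and did not overlap with them (limma, log2 fold change −0.59 with SE 0.15 and adjusted *P* = 0.0480). With 1 library left out, *Ckap2l* was called only when this was *Irf1-/-* replicate 2 or WT replicate 4 (adjusted *P* in the other fits up to 0.146, limma). *Tpx2* was called only when it was *Irf1-/-* replicate 3 or WT replicate 4 (up to 0.207 in the others), and its call was also lost with a pseudocount of 0.5, without a filter on low values, and after quantile normalization. *Gtse1*, whose product binds microtubule ends and p53, had the smallest difference of this class, with 1093, 1221 and 790.0 in the *Irf1-/-* libraries, in the order of replicates 2, 3 and 4, and 1624, 1523 and 867 in the WT libraries. WT replicate 4 was far below the other WT libraries and next to *Irf1-/-* replicate 4 (limma, log2 fold change −0.34 with SE 0.21 and adjusted *P* = 0.495). The remaining 5 lay between. *Nusap1*, of a protein that bundles microtubules near chromosomes, was at −0.63 (adjusted *P* = 0.101, limma). *Dlgap5* and *Tacc3*, of proteins that stabilize spindle fibres, were at −0.47 and −0.45 (adjusted *P* = 0.125 and 0.0841, limma). In these 3 genes the genotypes did not overlap, whereas they did in *Hmmr* (−0.44), of a protein at spindle poles, and *Ckap2* (−0.43), of a cytoskeletal protein.

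The class of ubiquitin ligase factors has 3 genes. *Cdca3* encodes an F-box-like trigger of mitotic entry and was called, with 1577, 1965 and 1278 normalized counts in *Irf1-/-* replicates 2, 3 and 4 and 2646, 2460.1 and 2236 in WT replicates 2, 3 and 4. *Irf1-/-* replicate 3 was the highest of its genotype and still below all WT libraries, with means of 2447 ± 205 (SD, *n* = 3) for WT mice and 1607 ± 345 for *Irf1-/-* mice (limma, log2 fold change −0.63 with SE 0.14 and adjusted *P* = 0.0274). The call held without *Irf1-/-* replicate 3 or WT replicate 4 and was lost without the others (adjusted *P* up to 0.128, limma). *Ube2c*, the gene of the ubiquitin-conjugating enzyme of the anaphase-promoting complex, had the lowest log2 fold change of the 3 and the widest spread, with 3769.8, 4211 and 2453 normalized counts in WT replicates 2, 3 and 4, against 2960.4, 2337 and 1462 in *Irf1-/-* replicates 2, 3 and 4. *Irf1-/-* replicate 2 was above WT replicate 4 (limma, log2 fold change −0.65 with SE 0.22 and adjusted *P* = 0.149). *Cdc20*, of the activator of that complex, counted 6969.7, 6218 and 4686 in the *Irf1-/-* libraries, in the order of replicates 2, 3 and 4, and 8153, 8543 and 6356 in the WT libraries. *Irf1-/-* replicate 2 again exceeded WT replicate 4 (limma, log2 fold change −0.38 with SE 0.14 and adjusted *P* = 0.186).

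For cytokinesis, *Anln* encodes the contractile ring protein anillin and had 1585, 1707 and 1229 normalized counts in *Irf1-/-* replicates 2, 3 and 4 and 2290.2, 2244 and 1659 in WT replicates 2, 3 and 4. WT replicate 4 was below *Irf1-/-* replicate 3 (limma, log2 fold change −0.45 with SE 0.15 and adjusted *P* = 0.128). *Ect2*, the gene of the factor that activates RhoA at the division site, had 2028, 1715 and 1499.7 normalized counts in WT replicates 2, 3 and 4, against 1466, 1979 and 1107 in *Irf1-/-* replicates 2, 3 and 4. *Irf1-/-* replicate 3 was higher than 2 of the WT libraries, and the order of the libraries was mixed (limma, log2 fold change −0.23 with SE 0.18 and adjusted *P* = 0.595).

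Among the chromosome genes, *Top2a* and *Mki67* were called and had the lowest and the third lowest log2 fold change of all 42. *Top2a* encodes the topoisomerase that untangles sister chromatids, and had 7874, 8285 and 5166 normalized counts in *Irf1-/-* replicates 2, 3 and 4 and 13177, 12859 and 9810.1 in WT replicates 2, 3 and 4. The highest *Irf1-/-* library was well below the lowest WT library, with means of 11949 ± 1859 (SD, *n* = 3) for WT mice and 7108 ± 1695 for *Irf1-/-* mice, a ratio of 59.5% (limma, log2 fold change −0.77 with SE 0.16 and adjusted *P* = 0.0177). It was called in 3 of the 6 fits with 1 library left out and had an adjusted *P* of up to 0.0674 in the others, those without *Irf1-/-* replicate 4 or WT replicates 2 and 3. *Mki67*, the gene of the proliferation antigen Ki-67, which coats mitotic chromosomes, had 5599, 4959.7 and 3949 normalized counts in WT replicates 2, 3 and 4, against 3090.4, 3863 and 2278 in *Irf1-/-* replicates 2, 3 and 4. *Irf1-/-* replicate 3 came close to WT replicate 4 without reaching it (limma, log2 fold change −0.67 with SE 0.17 and adjusted *P* = 0.0428). With 1 library left out, *Mki67* was called only when this was *Irf1-/-* replicate 3 or WT replicate 4, and its adjusted *P* in the other fits was at most 0.168 (limma). *Smc4*, of a core subunit of condensin, had 6140.4, 6426 and 5032 in the *Irf1-/-* libraries, in the order of replicates 2, 3 and 4, and 7308, 7547 and 6415 in the WT libraries. *Irf1-/-* replicate 3 and WT replicate 4 were level (limma, log2 fold change −0.28 with SE 0.11 and adjusted *P* = 0.194). *Cdca2*, of a protein that targets a phosphatase to chromatin, was at −0.34 (adjusted *P* = 0.194, limma), with overlap.

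Levels of the 42 genes could be set side by side after division by transcript length, for which the longest protein-coding transcript of GENCODE vM1 was used. In WT HSCs the highest were *Cdc20* with 4286 normalized counts per kilobase, *Ccnb2* with 3945, *Cdca8* with 3298, *Cks2* with 2990.1 and *Aurkb* with 2830.3. The lowest were *Hjurp* with 138, *Cenpf* with 165 and *Cenpe* with 231. *Cdca8* and *Aurkb* were thus above *Birc5* of the same complex (1042), on a scale that depends on the transcript chosen. The fewest reads on any of the 42 genes in a library were 508, for *Cdc25c*, so no value rested on a handful of reads.

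The promoters of these genes were looked up in a RefSeq table of build GRCm38.p6, which gives 250 bases before and 50 after each start and matched 34 of the 42. The letters of the CHR element, TTTGAA or TTCGAA, were found on either strand in 26 of the 34 (76.5%), against 21.7% of all 27025 genes with a window and 17.5% of the tested ones. CCAAT was found in 26 as well (76.5%, against 41.1% and 42.2%), and 22 genes held both in 1 window (64.7%, against 8.61% and 7.13%). E2F-type letters, GCGGGAA or GCGCGAA, were in the windows of *Cdk1* and *Hmmr* (5.88%, against 6.86% and 11.1%). An interferon-stimulated type of motif, GAAA followed after any 2 bases by another GAAA, was in those of *Bub1b* and *Cdca3* (5.88%, against 3.99% and 3.70%). These are matches of letters, and no binding was measured here. For *Birc5*, *Nuf2*, *Nusap1* and *Tacc3* neither CHR nor CCAAT letters were in the window, and their log2 fold changes were −0.58, −0.62, −0.63 and −0.45. The called genes *Aurkb* and *Tpx2* were among those without a window. Whether these matches go with the fold change was not tested.

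The 250 bases before the start are shown for *Top2a* and *Mki67*, the called genes with the most CHR and CCAAT matches there, for *Cdk1*, and for *Kif23*, which hardly differed between genotypes. These examples were picked and do not stand for all members. They read 5′ to 3′ on the strand of the gene, with CHR and CCAAT letters of either strand in capitals. The windows lie on the minus strand of GRCm38.p6 at chr11:99024190-99024439 for *Top2a*, chr7:135716380-135716629 for *Mki67*, chr10:69352913-69353162 for *Cdk1* and chr9:61946800-61947049 for *Kif23*.
Top2a: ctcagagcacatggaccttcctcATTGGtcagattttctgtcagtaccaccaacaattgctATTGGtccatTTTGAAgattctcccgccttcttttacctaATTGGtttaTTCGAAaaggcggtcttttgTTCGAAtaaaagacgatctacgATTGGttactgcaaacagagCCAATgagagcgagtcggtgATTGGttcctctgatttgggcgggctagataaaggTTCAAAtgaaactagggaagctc
Mki67: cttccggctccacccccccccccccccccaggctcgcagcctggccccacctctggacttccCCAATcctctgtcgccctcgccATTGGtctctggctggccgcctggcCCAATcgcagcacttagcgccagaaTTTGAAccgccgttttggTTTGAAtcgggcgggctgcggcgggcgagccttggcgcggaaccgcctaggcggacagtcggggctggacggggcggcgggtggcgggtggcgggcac
Cdk1: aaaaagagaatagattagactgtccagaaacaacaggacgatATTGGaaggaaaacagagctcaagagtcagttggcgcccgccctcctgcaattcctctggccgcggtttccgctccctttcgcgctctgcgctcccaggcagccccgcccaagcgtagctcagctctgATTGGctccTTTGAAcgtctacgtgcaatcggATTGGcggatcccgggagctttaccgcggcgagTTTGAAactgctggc
Kif23: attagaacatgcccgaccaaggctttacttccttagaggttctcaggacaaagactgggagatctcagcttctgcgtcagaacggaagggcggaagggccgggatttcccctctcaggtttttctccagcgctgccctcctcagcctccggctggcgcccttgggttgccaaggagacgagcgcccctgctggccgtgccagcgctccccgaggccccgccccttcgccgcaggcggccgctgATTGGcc
*Top2a* held 4 CHR and 6 CCAAT matches in this stretch, *Mki67* and *Cdk1* 2 and 3 each, and *Kif23* 0 and 1, although its whole window of 300 bases holds 1 CHR match.

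Other genes of mitosis, 113 in 8 lists, were all tested, and 105 of them were below 0 (against 50.4% of all tested genes), with a median of −0.32. Of these, 9 were called lower in limma (against 0.954% of all tested genes). Among 30 further kinetochore and centromere genes (median −0.43), *Knl1* (−0.78), *Ska1* (−0.72), *Spc25* (−0.65) and *Spc24* (−0.63) were among those called. *Spc24* and *Spc25* complete the complex of *Ndc80* and *Nuf2*, *Knl1* docks it with checkpoint proteins, and *Ska1* helps hold microtubules. The checkpoint gene *Mad2l1* (−0.64), the kinase genes *Melk* (−0.83) and *Pbk* (−0.73), and *E2f8* (−0.81), of a repressive E2F factor, were called in the other lists. With 1 library left out, *E2f8* was called in all 6 fits. *Knl1* was not called without *Irf1-/-* replicate 4 or WT replicate 3 (adjusted *P* up to 0.0524), and *Melk* not without *Irf1-/-* replicate 2 or WT replicate 3 (up to 0.0727). *Spc24* and *Mad2l1* were not called without *Irf1-/-* replicate 4 or WT replicates 2 or 3 (up to 0.104 and 0.108). *Spc25* and *Pbk* were called only without *Irf1-/-* replicate 3 or WT replicate 4, and *Ska1* only without WT replicate 4 (up to 0.163, 0.0555 and 0.223). In edgeR, *Ska1* was not called (adjusted *P* = 0.0556). The highest values in these lists were *Rbl2* (0.29), of a protein that represses cell cycle genes in resting cells, *Anapc13* (0.22) and *Numa1* (0.21), none of them called. Medians of the other lists were −0.46 for kinesins, −0.40 for condensin, −0.36 for spindle and cytokinesis, −0.33 for the checkpoint and cohesion, −0.31 for mitotic entry and exit and −0.20 for transcriptional regulators. The 14 core subunits of the anaphase-promoting complex, which *Cdc20* and *Ube2c* serve, had a median of −0.057, and 1 of them was lower at an unadjusted *P* under 0.05 (against 8.07% of all tested genes). Their mean deviation was −0.047 in *Irf1-/-* replicate 4, where that of the 42 genes was −0.62.

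Lists of cell type markers were examined in the same libraries. The 7 erythroid markers summed to 7928, 5359 and 6832 in *Irf1-/-* replicates 2, 3 and 4 and 10823, 13111 and 10189.9 in WT replicates 2, 3 and 4. All *Irf1-/-* sums were lower, and 4 of the 5 tested genes were below 0 (against 50.4% of all tested genes). *Gata1* was the most abundant gene (3761 in *Irf1-/-* and 6077 in WT HSCs on average). *Car1* (−3.51) and *Klf1* (−0.72) were called lower (against 0.954% of all tested genes), and the globin genes *Hba-a1* and *Hbb-bt* were at 0 reads in all 6 libraries. Whether near-identical gene copies took the globin reads in counting cannot be told from these counts. *Car1* was not called in edgeR (log2 fold change −2.48, adjusted *P* = 0.0887) or DESeq2 (−2.47, 0.202), nor in limma without *Irf1-/-* replicate 3 or 4 (adjusted *P* up to 0.0681), and *Klf1* was called only without *Irf1-/-* replicate 4 or WT replicate 4 (up to 0.117 in the other fits). The 6 megakaryocyte markers summed to 51516, 33794 and 46279.6 in *Irf1-/-* replicates 2, 3 and 4 and 58848, 71525 and 56822 in WT replicates 2, 3 and 4. Again all *Irf1-/-* sums were lower, and 6 of 6 genes were below 0 (against 50.4% of all tested genes). *Itga2b* was the most abundant gene (25322 in *Irf1-/-* and 37078 in WT HSCs on average). *Pf4* (−1.11) and *Gp1bb* (−0.90) were called lower (against 0.954% of all tested genes), in all 6 fits with 1 library left out as well. Both sums were lowest in *Irf1-/-* replicate 3, and the 42 mitotic genes in *Irf1-/-* replicate 4. The 12 HSC markers summed to 235009.6, 259079 and 238477 in *Irf1-/-* replicates 2, 3 and 4 and 237625, 242037 and 218882 in WT replicates 2, 3 and 4, with *Kit* as the most abundant gene. These sums overlapped, while *Fgd5* was called higher (0.83, 6 of 6 fits with 1 library left out), *Procr* (0.52) was higher and *Ly6a* (−0.43) lower at an adjusted *P* under 0.05 in limma. *Ly6a* did not pass without *Irf1-/-* replicate 2 or 4 or WT replicate 3 (up to 0.115). *Flt3*, 1 of 5 markers of multipotent and lymphoid progenitors, was called higher (0.67). With 1 library left out, *Flt3* was called only without WT replicate 2 or 4 (adjusted *P* of up to 0.127 in the others, limma). It was the only called gene of its list, whose median was 0.11, and 1 gene was below 0. *Egr1* (1.01) was the only called gene among 9 of the dissociation response, whose median was 0.091, and 3 were below 0. Over all tested genes 0.960% were called higher. The sums of both lists overlapped between genotypes. The sums of 5 mature myeloid markers were led by *Lyz2* (27876 in *Irf1-/-* and 26099.7 in WT HSCs on average), and WT replicate 4 stood apart in *S100a8* and *S100a9* with 1033 and 1246 normalized counts, where the other libraries had at most 110.0 and 131. Of the 6 granulocyte-monocyte progenitor markers, *Prtn3* was higher at an adjusted *P* under 0.05 (0.53, adjusted *P* = 0.0335, limma; up to 0.170 with 1 library left out) and had no overlap between genotypes, but did not reach the fold threshold. The sums of this list were 8386, 8384 and 10544 in *Irf1-/-* replicates 2, 3 and 4 and 6772, 5568 and 7137 in WT replicates 2, 3 and 4, and were mainly *Prtn3* (on average 8429 of 9105 in *Irf1-/-* and 5847 of 6492 in WT HSCs). In the other 5 genes the genotypes overlapped. No gene of the lists for granulocyte-monocyte progenitors, mature myeloid, B, T and NK, or stromal cells was called. The part of these differences in the values of the mitotic genes was not tested.

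**Figure D2:**
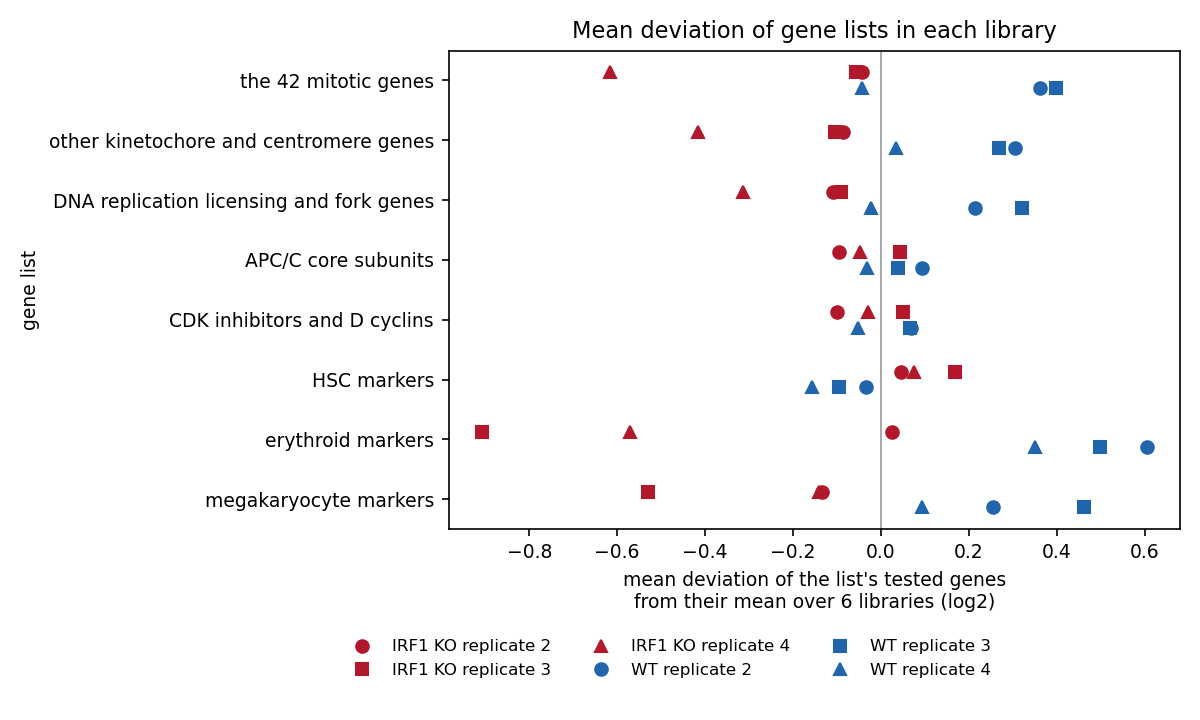
Mean deviation of the tested genes of 8 lists from their means over the 6 libraries (log2, horizontal axis), with 1 symbol for each library. For the 42 mitotic genes *Irf1-/-* replicate 4 is lowest (−0.62), whereas the erythroid and megakaryocyte markers are lowest in *Irf1-/-* replicate 3 (−0.91 and −0.53).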

How the data were processed

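RNA was purified from sorted HSCs, and libraries were made with the SMART-Seq v4 and Nextera XT kits, without molecular identifiers. The authors trimmed reads (Trim Galore), aligned them (HISAT2; the submitters' processing notes name mm39), used Htseq-count for reads per gene, and deposited a signal, the count of a gene divided by a DESeq2 size factor of its library. Strand use and annotation are not given in the sources used here. All values (100%) were whole multiples, within 0.01, of the worth of 1 read, so whole reads were recovered. Replicates of a genotype differed by more than the counting error of reads (chi-square per gene 15.0 to 27.6). That error does not cover variation between mice or from amplification.

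Genotypes were taken from the labels and tested in R 4.3.3 with lmFit and eBayes (with trend) of limma 3.58.1 on log2(normalized count + 1), which understates changes of low genes, over 17404 genes with a mean of at least 10, with Benjamini-Hochberg adjustment. edgeR 4.0.16 and DESeq2 1.42.0 on recovered reads called 162 and 211 genes lower and 165 and 299 higher. Other alternatives were the pseudocount, the filter, the trend, quantile normalization, median centring, a replicate block and leaving out libraries. The limma, edgeR, DESeq2 and replicate block fits were tested on simulated data. Transcript lengths were from GENCODE vM1 and promoter windows from RefSeq GRCm38.p6. Python 3.11.15, SciPy 1.17.1 and matplotlib 3.10.9 were used.

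The 42 genes and all lists were chosen with earlier results of these data known. Named are *Irf1*, the 42 genes, and of the pathway, comparison and marker lists all called genes, the 3 lowest and 3 highest of each kind and 5 defining markers, except for 1 called gene of the pathway lists that is not reported here. The most abundant gene of a marker list is named with its level, and *S100a8*, *S100a9*, *Prtn3*, *Cdkn2c*, *Cdk4*, *Cdk6* and the globin genes were named after their values were seen. Values per library are given for genes past the adjusted *P*, the extremes of each class, and *Mki67*, *Cdk1*, *Ccnb1*, *Plk1*, *Aurka* and *Aurkb*.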

Additional observations from a re-analysis of the deposited data

How the results depend on the processing

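The 42 genes kept log2 fold changes below 0 under each of the 17 alternatives except *Hjurp* and *Kif23*, which turned positive with single libraries left out (ranges −0.15 to 0.072 and −0.24 to 0.067). With all libraries, 6 of the 42 were called lower and 9 passed the adjusted *P* of 0.05 in limma. These counts were 0 and 0 without the trend in limma's prior variance, where 33 genes were called lower and 7 higher over all genes. They were 10 and 23 in DESeq2, which called 211 genes lower and 299 higher over all genes. Median centring called 11 of the 42, with 196 genes called lower and 149 higher over all genes, where the planned fit had 166 and 167. With the planned fit and an unadjusted *P* under 0.05 the count was 35. Left out in turn, single libraries gave 0 to 24 called and 0 to 25 past the adjusted *P*, with 105 to 265 genes called lower and 83 to 304 higher over all genes. Without replicate 4 of both genotypes, added after seeing the data, 16 passed the adjusted *P*. Counts over all genes in these alternatives are of called genes, so counts past the adjusted *P* alone have no matching share here. Why the counts differ between alternatives was not tested. The median stayed between −0.65 and −0.32. *Irf1* was not called under any of the alternatives.

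With the replicate number as a replicate block, 13 of the 42 genes were called, with 196 genes called lower and 219 higher over all genes. Of the 42, 34 passed the adjusted *P* of 0.05, for which no count over all genes is given here. The study's methods state no pairing of these libraries. Deviations from the genotype means over tested genes correlated at −0.094, 0.25 and 0.15 between libraries numbered 2, 3 and 4. *Irf1-/-* replicates 3 and 4 correlated best with the WT library of the same number, and *Irf1-/-* replicate 2 with WT replicate 4 (0.25). With 3 libraries in each genotype these correlations cannot decide whether the numbers mark pairs.

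Among other named genes, the sign also turned for *Kit* (0.17 after quantile normalization, −0.066 to 0.028 with 1 library left out), *Cd48* (−0.071 to 0.24), *Cdkn1b* (−0.018 after quantile normalization, −0.098 to 0.22), *Anapc13* (−0.095 to 0.40), *Fos* (−0.49 without replicate 4 of both genotypes, −0.006 to 1.71), *S100a8* (−2.15 to 0.93) and *S100a9* (−2.01 to 1.39), none of which was called. Reads without molecular identifiers are not independent molecules, and with 3 mice in each genotype single mice moved most counts.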

Other observations

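Genes of DNA replication act before mitosis. All 44 tested genes of origin licensing and replication forks were below 0 (against 50.4% of all tested genes), with a median log2 fold change of −0.37. Of these, 6 were lower at an adjusted *P* under 0.05 in limma (against 1.49% of all tested genes) and 1 was called lower (against 0.954%). This was *Gins1*, the gene of a subunit of the replicative helicase, with 556, 492 and 550.2 normalized counts in *Irf1-/-* replicates 2, 3 and 4 and 932, 1011 and 875 in WT replicates 2, 3 and 4 (limma, log2 fold change −0.82 with SE 0.14 and adjusted *P* = 0.00511). It was called in all 6 fits with 1 library left out, and *Irf1-/-* replicate 4 was not the lowest library. *Cdc6* and *Gmnn* of the same list were next (−0.56 and −0.56, adjusted *P* = 0.0660 and 0.0238, limma). The mean deviation of the 44 genes was −0.11, −0.090 and −0.31 in *Irf1-/-* replicates 2, 3 and 4 and 0.21, 0.32 and −0.022 in WT replicates 2, 3 and 4. The libraries thus had nearly the same order as for the 42 mitotic genes, and *Irf1-/-* replicate 4 was again the lowest.

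Of 12 genes of CDK inhibitors, D cyclins and their kinases CDK4 and CDK6, which govern the exit from quiescence, 10 were tested and none was called in limma. At an unadjusted *P* under 0.05, which 2863 of the 17404 tested genes passed in either direction, *Cdkn2c*, *Cdk4* and *Cdk6* were lower and *Cdkn1a* and *Cdkn1c* higher (median of the list −0.12). *Cdkn1a*, the gene of p21, had 287, 351 and 312 normalized counts in *Irf1-/-* replicates 2, 3 and 4 and 245, 175 and 144 in WT replicates 2, 3 and 4. All *Irf1-/-* libraries were above all WT libraries (limma, log2 fold change 0.78 with SE 0.24 and adjusted *P* = 0.1003). In DESeq2, which called 299 genes higher, *Cdkn1a* was called higher (log2 fold change 0.75, adjusted *P* = 0.0275). In edgeR it was not called (0.75, adjusted *P* = 0.126). *Cdkn1c*, of p57, was at 0.22 and *Cdkn1b*, of p27, at 0.045 (adjusted *P* = 0.281 and 0.951, limma). Among markers, the highest values besides *Egr1* were *Fos* (0.92) and the lymphoid gene *Il7r* (0.88), both with wide spreads between mice and not called.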
